A study of Saccharomyces cerevisiae with 16 samples.

Results

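The comparison covers the first 15 min after yeast cells were moved out of phosphate. It sets 1 RNA sequencing library taken 15 min after the transfer to medium without phosphate against 1 library taken at 0 min in high phosphate, and takes the difference of their log2 CPM values (counts per 1000000 reads) for each gene. Of the 6648 named genes in the deposited table, 5248 had a value in both libraries and make up the comparison; a further 56 had a value at 15 min alone and 227 at 0 min alone. Both libraries come from Saccharomyces cerevisiae of the BY4741 background, a haploid laboratory strain of mating type a that lacks working HIS3, LEU2, MET17 and URA3, with a YFP reporter driven by the PHO84 promoter and a genotype given as delta-phm4. PHM4 is another name of VTC1, a subunit of the vacuolar polyphosphate polymerase. The whole series follows this strain over 16 time points with 1 library at each, so no time point has a replicate and no test between times was possible. The cells were washed on the way into the new medium, so the wash, the change of medium and the loss of phosphate cannot be told apart here.

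VTC1 itself was listed at 156 CPM (211 reads) at 15 min, against 102 CPM (349 reads) at 0 min. This goes against the label of a deletion, and the strain is called below only by its label. MET17 and LEU2 had no value at either time, and HIS3 (13 reads) and URA3 (16 reads) had one at 0 min alone. All 6 markers of mating type a were listed in both libraries and none differed by 2-fold. Of 12 markers of the other mating type and of sporulating cells, 6 were listed in both libraries. The 7 listed at 15 min were at 7.39 to 61.3 CPM at that time. Of the 6, 3 were at least 2-fold higher at 15 min, led by MF(ALPHA)1 with 31 reads at 15 min and 17 at 0 min. The share was 13.2% of all 5248 genes and 28.2% of the 1049 with the lowest mean levels. Only 2 of the 6 were high enough at 0 min to be listed at 15 min after a 2-fold fall, and 1 of these was at least 2-fold higher. MF(ALPHA)2, IME1, SPO13 and SPS100 had no value at either time. The summed level of these markers was 160 CPM at 15 min and 65.7 CPM at 0 min, and their part in the results was not tested. The libraries held about 1353954 reads at 15 min and 3437661 at 0 min, and the 30 min library used below held 603370.

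In yeast, phosphate is sensed through the PHO pathway. When phosphate is plentiful, the cyclin and kinase pair Pho80 and Pho85 phosphorylates the transcription factor Pho4 and keeps it out of the nucleus. When phosphate runs short, the inhibitor Pho81 blocks the kinase, and Pho4 enters the nucleus and, with Pho2, switches on the PHO regulon: transporters that bring phosphate in, phosphatases that free it from other molecules, and enzymes that store it as polyphosphate in the vacuole. Cells short of a nutrient also slow the making of ribosomes and switch on stress genes through the factors Msn2 and Msn4.

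The results turn on a few gene groups whose promoters carry known short motifs, and 9 stretches of 120 bases are shown to let these be seen. They lie between 500 and 100 bases before the start codon and were read from the R64 reference; capitals mark matches on either strand. In PHO84 and VTC3 the capitals mark CACGTG, the core of the Pho4 site, or its weaker form CACGTT (read as AACGTG on the other strand). PHO84 lies on the minus strand and its stretch is chrXIII:26174-26293, inside the annotated antisense RNA and dubious reading frame that overlap this promoter, while that of VTC3, also on the minus strand, is chrXVI:517267-517386.
PHO84: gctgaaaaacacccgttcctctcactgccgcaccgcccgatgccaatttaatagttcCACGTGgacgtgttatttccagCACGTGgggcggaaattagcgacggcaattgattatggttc
VTC3: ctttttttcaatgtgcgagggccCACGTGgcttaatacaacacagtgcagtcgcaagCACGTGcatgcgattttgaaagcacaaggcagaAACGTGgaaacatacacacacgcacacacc

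For the stress genes PHM8 (plus strand, chrV:225489-225608) and RTC3 (plus strand, chrVIII:280505-280624) the capitals mark AGGGG, the stress response element bound by Msn2 and Msn4.
PHM8: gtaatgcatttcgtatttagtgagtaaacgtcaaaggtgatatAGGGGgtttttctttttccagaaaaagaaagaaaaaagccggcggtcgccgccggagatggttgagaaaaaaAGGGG
RTC3: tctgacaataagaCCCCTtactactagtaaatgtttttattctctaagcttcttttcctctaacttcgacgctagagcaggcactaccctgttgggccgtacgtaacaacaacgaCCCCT

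For the sulphur regulators MET28 (minus strand, chrIX:384264-384383) and MET32 (minus strand, chrIV:964881-965000) they mark CACGTG, which the sulphur gene regulator Cbf1 also binds, and AAACTGTGG, the site of Met31 and Met32.
MET28: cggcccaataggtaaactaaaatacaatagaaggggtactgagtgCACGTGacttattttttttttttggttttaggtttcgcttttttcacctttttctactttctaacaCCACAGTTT
MET32: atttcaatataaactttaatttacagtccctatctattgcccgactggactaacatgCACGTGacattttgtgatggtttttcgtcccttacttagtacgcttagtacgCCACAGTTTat

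For the purine gene ADE2 (minus strand, chrXV:566325-566444) they mark TGACTC, bound by Bas1 and by Gcn4.
ADE2: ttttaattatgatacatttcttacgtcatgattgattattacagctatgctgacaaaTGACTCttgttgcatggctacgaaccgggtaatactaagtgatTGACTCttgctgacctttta

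For the ribosome assembly genes RNT1 (minus strand, chrXIII:749778-749897) and DBP2 (plus strand, chrXIV:413419-413538) they mark GCGATGAG, called PAC, and GAAAAATTT, called RRPE.
RNT1: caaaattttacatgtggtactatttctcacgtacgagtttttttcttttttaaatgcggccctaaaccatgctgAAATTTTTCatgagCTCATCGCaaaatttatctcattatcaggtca
DBP2: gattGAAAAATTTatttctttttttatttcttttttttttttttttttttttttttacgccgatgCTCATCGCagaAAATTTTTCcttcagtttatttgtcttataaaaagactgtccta

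Within 15 min the PHO regulon and the general stress genes were far higher, genes of sulphate assimilation and purine synthesis were higher as well, and the genes that build ribosomes were lower. In what follows a gene is said to have risen or fallen when it differed by at least 2-fold. Of the 5248 genes, 694 (13.2%) rose and 72 (1.37%) fell, while 4482 (85.4%) stayed within 2-fold. In all 95 genes rose and 3 fell by at least 4-fold. Those that rose by 8-fold or more were PHO84, SPL2, SPI1, PHO89 and YDR034W-B, which rested on 56 reads at 15 min and 14 at 0 min. The genes just inside the threshold were MMM1 and STE13 on the upper side and YDR514C and PWP2 on the lower (log2 difference of PWP2 -1.01); those just outside were UBX2 and CWP1 at 0.999 and 0.998, and YMR181C and TRM3 on the lower side (TRM3 -0.995).

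The surplus of rises depends on the scale and on which genes are listed. A gene under 14.8 CPM at 0 min could not be listed at 15 min after a 2-fold fall, since the lowest value given at 15 min is 7.39 CPM, and 311 of the 694 rises were among the 713 such genes. Of the other 4535 genes 383 (8.45%) rose and 72 (1.59%) fell, with a median difference of 0.18; this split was chosen after seeing the data. The median gene differed by 0.25 on the log2 scale, with a range of -0.68 to 1.498 between the 5th and 95th percentiles. On deposited values 90.6% of the genes past 2-fold had risen; with the median gene set to no change, 427 genes (8.14%) rose and 201 (3.83%) fell, and 68.0% of those past 2-fold had risen. The median difference was 0.54 among the 1049 genes with the lowest mean levels, where 28.2% rose, and 0.00 among the 1050 with the highest, where 5.43% rose. Median 95% counting intervals, which cover the sampling of reads and not the spread between cultures, reached 0.79 to either side among the lowest and 0.16 among the highest. Medians also ran from 0.40 among the 1017 genes of shortest coding length, with 17.01% risen and 0.0983% fallen, to 0.13 among the 1024 of longest, with 7.23% risen and 1.66% fallen. The part of level and length in the results was not tested.

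**Figure D1:**
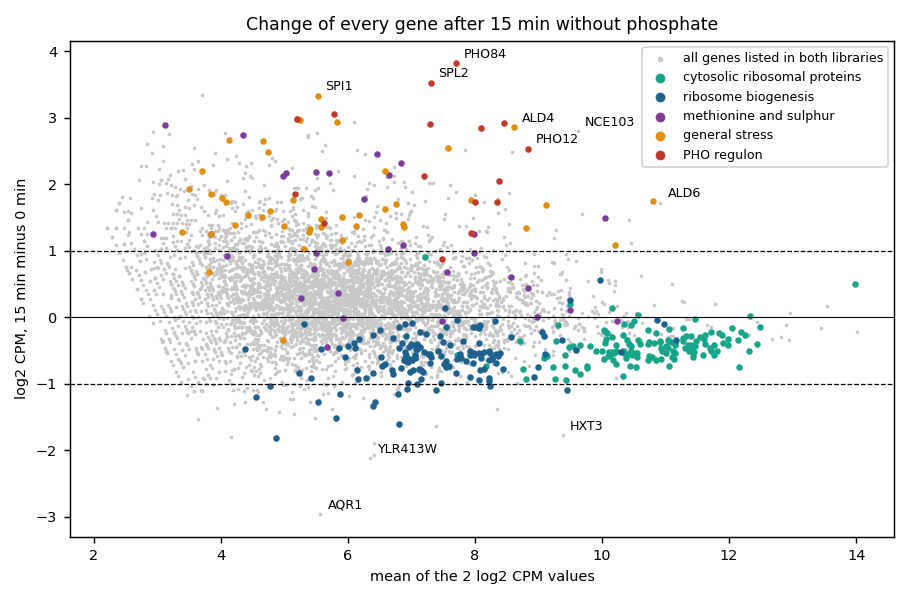
Log2 difference between 15 min and 0 min (vertical axis) against the mean of both log2 CPM values (horizontal axis) for the 5248 genes listed in both libraries, 1 point per gene, with 5 gene lists in colour and dashed lines at 2-fold. PHO regulon and general stress genes lie mostly above the upper line, while ribosome biogenesis and ribosomal protein genes lie mostly just below 0.

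Of the 19 genes in the PHO regulon list, 16 had a value in both libraries; PHM7, GIT1 and CTF19 had none in either. Of the 16, 15 rose and none fell, beside 13.2% risen among all genes. Of the 15 members that a 2-fold fall would have left listed, 14 rose, beside 8.45% of all such genes. The median difference of the 16 was 2.33, or 2.08 with the median gene set to 0, and together they took 0.761% of the reads at 15 min against 0.150% at 0 min. The members differed widely among themselves, with log2 differences of 0.87 to 3.82.

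The transporters and their regulators led. PHO84, the main high-affinity phosphate transporter, was at 783 CPM (1060 reads) at 15 min, against 55.6 CPM (191 reads) at 0 min, a 14.1-fold rise (log2 difference 3.82, counting interval 3.59 to 4.05) and the largest of all 5248 genes. SPL2, a small protein that lowers the low-affinity uptake system, was at 538 CPM at 15 min and 46.8 CPM at 0 min (log2 difference 3.52, counting interval 3.27 to 3.78). PHO89, the sodium-coupled phosphate transporter, was at 159 CPM at 15 min and 19.2 CPM at 0 min (log2 difference 3.05). PHO86, which helps Pho84 leave the endoplasmic reticulum, moved less, with 465 CPM at 15 min, 140 CPM at 0 min and a log2 difference of 1.74.

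The transporters used when phosphate is plentiful did not rise with them. PHO87 and PHO90, the low-affinity transporters, had log2 differences of -0.09 and -0.02, with counting intervals of -0.54 to 0.33 and -0.27 to 0.23. At 30 min both were lower than at 0 min, with log2 differences of -1.30 and -1.11. PHO91, a vacuolar phosphate transporter, had 0.48, and SYG1, a phosphate exporter, -0.17.

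Among the phosphatases, the paralogs PHO11 and PHO12 were ahead of PHO5. PHO11 was at 730 CPM at 15 min and 101 CPM at 0 min, a log2 difference of 2.85, and PHO12 was at 1099 CPM at 15 min and 190 CPM at 0 min, a log2 difference of 2.53. PHO5, the best known of the secreted acid phosphatases, was at 594 CPM at 15 min and 179 CPM at 0 min, a log2 difference of 1.73. All 3 are similar in sequence and their recovered reads were not whole numbers in at least 1 library, so the single values are uncertain. PHO3, the neighbour of PHO5 that encodes a thiamine-regulated phosphatase, had a log2 difference of -0.33. PHM8, which frees phosphate from nucleotides and lipids, rose by 2.98 on the log2 scale, PHO8, the vacuolar alkaline phosphatase, by 1.85, and GDE1, which breaks down glycerophosphocholine, by 1.41.

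The polyphosphate genes rose to unequal degrees. VTC3 was at 959 CPM at 15 min, against 127 CPM at 0 min (log2 difference 2.91, counting interval 2.76 to 3.07). VTC4, the catalytic subunit, was at 677 CPM at 15 min and 164 CPM at 0 min (log2 difference 2.05), and VTC2 at 379 CPM at 15 min and 157 CPM at 0 min (log2 difference 1.27). VTC1, the gene named in the strain label, differed by 0.62. PPN1, a polyphosphatase that cuts the polymer, was the only one of the 16 listed PHO genes short of 2-fold, with 241 CPM at 15 min and 132 CPM at 0 min (log2 difference 0.87). PHM6, a PHO-regulated gene of unknown function, rose by 2.90.

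The signalling genes moved less, and not as a group. PHO81, the inhibitor of the kinase and itself a PHO target, was at 306 CPM (415 reads) at 15 min, against 70.1 CPM (241 reads) at 0 min, a log2 difference of 2.13. The 17 genes listed as phosphate signalling or constitutive transport had a median of 0.61. With the median gene set to 0, 3 of them rose, beside 8.14% of all genes. On deposited values 4 rose, beside 13.2% of all genes, and none fell. These 4 were PLC1, phospholipase C, at 1.53, PHO80 at 1.30, PHO85 at 1.27 and DDP1, a polyphosphate and inositol pyrophosphate phosphatase, at 1.11. PHO80 rested on 33 reads at 15 min and 34 at 0 min, and its counting interval ran from 0.57 to 2.04. PHO4 itself differed by -0.34 and PHO2 by 0.78, with counting intervals of -0.80 to 0.11 and 0.04 to 1.49. The inositol pyrophosphate kinases KCS1 and VIP1 differed by 0.45 and 0.61.

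**Figure D2:**
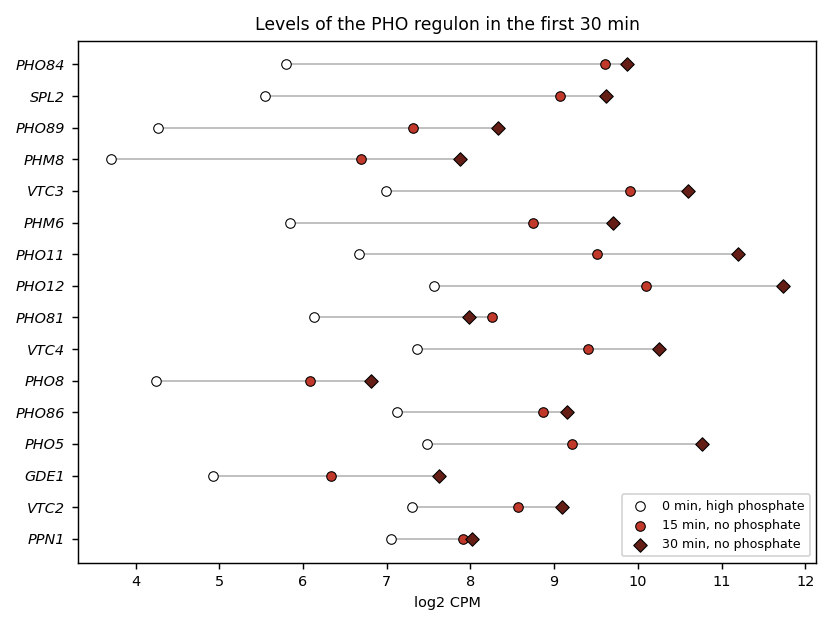
Level of each of the 16 listed PHO regulon genes (log2 CPM, horizontal axis) at 0 min in high phosphate and at 15 and 30 min without phosphate, 1 library each, ordered by the difference at 15 min. All 16 were higher at 15 min than at 0 min, and PHO81 was the only one lower at 30 min than at 15 min.

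Most of the PHO genes climbed further by 30 min. This second comparison shares the 0 min library with the first, so the 2 sets of differences are not independent. At 30 min 15 of the 16 were further above 0 min than at 15 min, with a median of 3.45. PHO84 had a log2 difference of 3.82 at 15 min and 4.07 at 30 min, and SPL2 had 3.52 at 15 min and 4.07 at 30 min. The smallest further climbs were those of PPN1, PHO84 and PHO86, by 0.11, 0.25 and 0.29. The secreted acid phosphatase genes differed most between 15 and 30 min: PHO11 had 2.85 at 15 min and 4.53 at 30 min, PHO12 had 2.53 at 15 min and 4.16 at 30 min, and PHO5 had 1.73 at 15 min and 3.28 at 30 min. PHO81 alone went the other way, with 2.13 at 15 min and 1.85 at 30 min.

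The motif matches upstream of the PHO genes were as follows. Motifs were searched on both strands in the 500 bases before the start codon of 5109 genes of the comparison that could be placed on R64. CACGTG was found at 13 of the 16 PHO genes, beside 6.46% of all 5109, and CACGTT at 12 of 16, beside 16.3%. PHO84, VTC3 and VTC4 had 2 matches to CACGTG each and SPL2 had 4. PHM8 and PHO8 had CACGTT alone, and PPN1, with the smallest difference, had neither. A match is a string of letters and does not show that a factor was bound.

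The general stress genes formed the next highest list. Of 47 genes, 44 had values in both libraries, with a median of 1.56. Of these, 41 rose, beside 13.2% of all genes, and none fell. Of the 28 that a 2-fold fall would have left listed, 26 rose, beside 8.45% of all such genes. PHM8 is in this list as well as in the PHO regulon. SPI1, a cell wall protein that rises as growth slows, was at 146 CPM (198 reads) at 15 min, against 14.5 CPM (50 reads) at 0 min, a 10.1-fold rise. TMA10 and RTC3, small stress-induced proteins, were 2.96 and 2.94 higher on the log2 scale. ALD4, the mitochondrial aldehyde dehydrogenase, was at 1058 CPM at 15 min, against 146 CPM at 0 min, a log2 difference of 2.86. HSP12, a membrane-protecting heat shock protein, had 709 CPM at 15 min and 279 CPM at 0 min (log2 difference 1.34), and CTT1, the cytosolic catalase, differed by 1.38 on 41 reads at 15 min and 40 at 0 min. SSE2, at -0.35, was the only member below 0, and XBP1 and MOH1 were listed at 15 min alone, at 18 and 19 reads.

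Genes for trehalose and glycogen, the reserve sugars, went the same way. Of 20 genes 12 rose, beside 13.2% of all genes, and none fell, with a median of 1.18. Of the 11 that a 2-fold fall would have left listed, 7 rose, beside 8.45% of all such genes. With the median gene set to 0, 8 of the 20 rose, beside 8.14% of all genes. GPH1, which breaks glycogen down, differed by 1.79, and TPS2, PGM2 and NTH1, which make trehalose, supply its precursor and degrade it, differed by 1.49, 1.33 and 1.24. The element AGGGG was found upstream of 40 of 44 general stress genes and 17 of 20 reserve sugar genes, beside 34.6% of all genes; among all genes that rose it was at 53.6%, and among those that fell at 30.0%.

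Chaperone genes under Hsf1, the heat shock factor, were mostly within 2-fold at 15 min. Of 29 genes 7 rose, beside 13.2% of all genes, and none fell, with a median of 0.33, near that of all genes. HSP42, BTN2 and CUR1, which sort misfolded proteins into deposits, rose by 2.73, 1.94 and 1.79, and the disaggregase HSP104 by 1.48. Several major Hsp70 and Hsp90 genes stood higher at 30 min than at 15 min. SSA1 had a log2 difference of -0.04 at 15 min and 1.43 at 30 min. HSP82 had 0.98 at 15 min and 3.15 at 30 min, and SSA4 had 0.25 at 15 min and 2.62 at 30 min. SSA2, at 1646 CPM at 0 min, was the lowest of the list at 15 min, at -0.92, and was near its 0 min level at 30 min, at 0.02. At 30 min 28 of the 29 stood higher than at 15 min and the median was 1.32. SSA1, SSA2, HSP82 and HSC82 have close copies, so single values are uncertain.

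**Figure D3:**
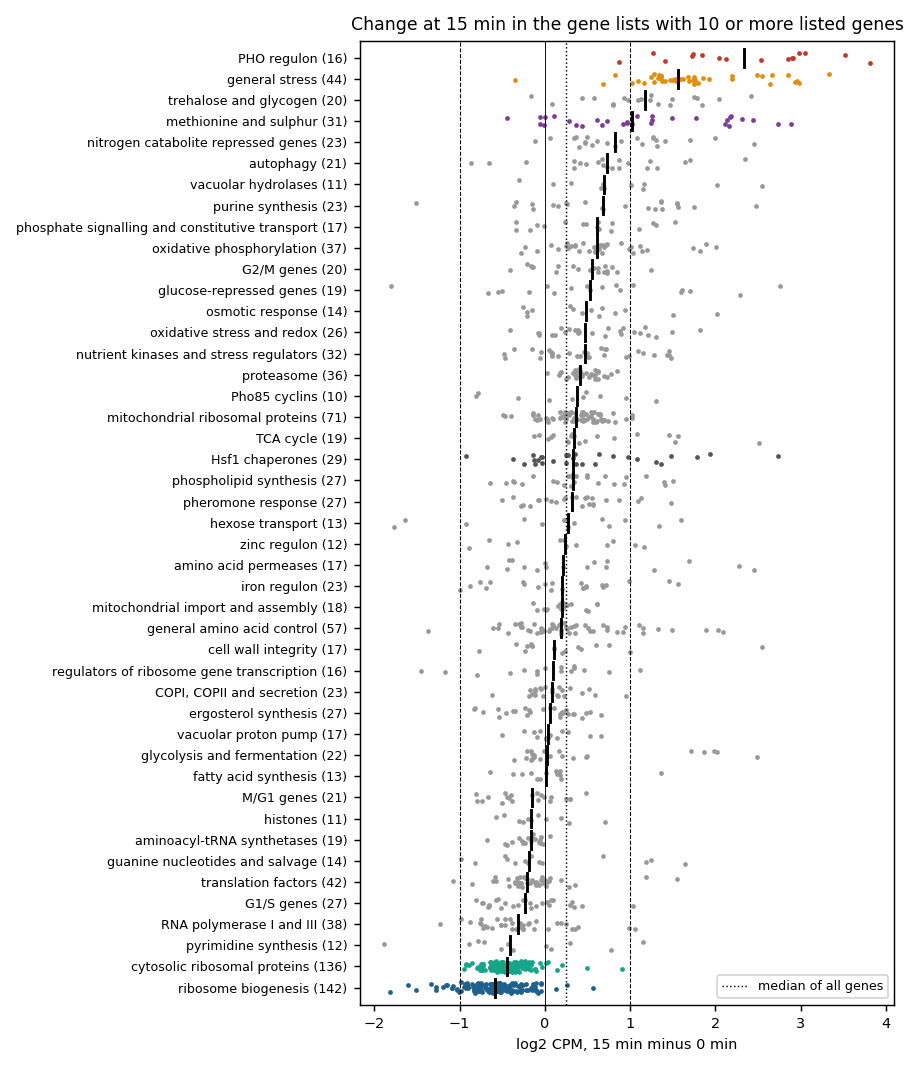
Log2 difference between 15 min and 0 min (horizontal axis) for every gene of each list with 10 or more listed genes, 1 point per gene, with the list's median as a black bar and its number of genes in brackets. The PHO regulon, general stress, reserve sugar and sulphur lists stand highest, and ribosome biogenesis and ribosomal proteins lowest.

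Genes of sulphate assimilation and methionine synthesis were higher at 15 min as well. Of 31 genes 16 rose, beside 13.2% of all genes, and none fell, with a median of 1.03. Of the 26 that a 2-fold fall would have left listed, 12 rose, beside 8.45% of all such genes. MET14, the kinase that activates sulphate, was at 205 CPM (277 reads) at 15 min and 37.5 CPM (129 reads) at 0 min, a log2 difference of 2.45, and MET16, the reductase that follows it, differed by 2.31. MET1 and MET10, needed for sulphite reductase, differed by 2.19 and 2.13, and MET6, methionine synthase, by 1.49. Among the regulators CBF1 rose by 2.17, MET28 by 2.88 and MET32 by 2.74, the last 2 from only 11 and 27 reads at 0 min, while MET4 and MET31 were at -0.01 and -0.45. BDS1, a sulphatase gene outside the list, rose by 2.93, and the sulphate permease gene SUL1 was listed at 15 min alone, at least 4.57-fold above the lowest value given for 0 min.

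The sulphur genes had receded by 30 min. Of the 28 sulphur genes with a value at 30 min, 21 were lower then than at 15 min, and the median of the list was 0.53. MMP1, the transporter of S-methylmethionine, was at 41.3, 141 and 31.5 CPM at 0, 15 and 30 min. MET1 had log2 differences of 2.19 at 15 min and 0.71 at 30 min, MHT1, which uses S-methylmethionine, had 2.12 at 15 min and 0.90 at 30 min, and BDS1 had 2.93 at 15 min and 1.15 at 30 min. Among genes that had risen 4-fold at 15 min and had a value at 30 min, the 5 closest to 0 min at 30 min were MET1, MHT1, BDS1, MET10 and RAD59. RAD59 is a recombination gene. At 30 min MMP1, MET1, MHT1 and RAD59 rested on only 19, 21, 17 and 14 reads. CACGTG was found at 21 of the 31 sulphur genes and AAACTGTGG at 12, beside 6.46% and 0.881% of all genes; CACGTG is also the centre of TCACGTGA, an octamer preferred by Cbf1, found at 7 of the 31.

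Purine genes showed a like course. Of 23 genes 10 rose and 1 fell, beside 13.2% and 1.37% of all genes, with a median of 0.68. ADE17, which carries out the last steps to IMP, was at 162, 905 and 428 CPM at 0, 15 and 30 min, with log2 differences of 2.48 at 15 min and 1.40 at 30 min. ADE2 and ADE4, in the same pathway, rose by 1.75 and 1.30, and SHM2, GCV1 and GCV2, which feed it with one-carbon units, by 1.56, 1.56 and 1.55. The gene that fell was BAS1, the activator of the pathway, at 26.6 CPM at 15 min and 75.7 CPM at 0 min (log2 difference -1.51), though its reads were not whole at 0 min. TGACTC was found upstream of 15 of the 23, beside 664 of all 5109 genes. GCN4 itself, at 994 CPM at 15 min and 964 CPM at 0 min, differed by 0.04, and of 57 genes of general amino acid control 8 rose and 1 fell, shares close to the 13.2% and 1.37% of all genes.

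Nitrogen catabolite repressed genes, which cells keep low on good nitrogen sources, were also higher. Of 23 genes 10 rose, beside 13.2% of all genes, and none fell, with a median of 0.82. Of the 12 that a 2-fold fall would have left listed, 5 rose, beside 8.45% of all such genes. GAP1, the general amino acid permease, was at 180 CPM at 15 min, against 32.9 CPM at 0 min (log2 difference 2.45), and GDH2, which releases ammonium from glutamate, rose by 1.99. Over the 19 genes also listed at 30 min the median was 0.89 at 15 min and 0.93 at 30 min, and GAP1 had 2.43 at 30 min. Others receded: GLN1, glutamine synthetase, had 1.32 at 15 min and 0.35 at 30 min, and AGP1, an amino acid permease, had 1.69 at 15 min and 0.15 at 30 min. GATAAG was found at 19 of the 23, beside 22.5% of all genes. Of 21 autophagy genes 6 rose, beside 13.2% of all genes, and 4 with the median gene set to 0, beside 8.14%. Of the 12 autophagy genes that a 2-fold fall would have left listed, 3 rose, beside 8.45% of all such genes. ATG19 was at 2.34 and ATG8 at 1.65. At 12.8 CPM at 0 min, ATG19 could not have been listed after a 2-fold fall. Of 11 vacuolar hydrolase genes 5 rose, beside 13.2% of all genes, and 2 with the median gene set to 0, beside 8.14%. Of the 8 hydrolase genes that a 2-fold fall would have left listed, 3 rose, beside 8.45% of all such genes. PRB1, proteinase B, was at 2.02.

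In central carbon metabolism several lesser-used isozymes rose while their main counterparts stayed within 2-fold. Of 22 genes of glycolysis and fermentation 5 rose, beside 13.2% of all genes, and none fell. The median of the 22 was 0.02, which becomes -0.23 with the median gene set to 0. ENO1 was at 711 CPM at 15 min and 195 CPM at 0 min, while its paralog ENO2 was at 10514 CPM at 15 min and 11813 CPM at 0 min, log2 differences of 1.87 and -0.17. PYK2 and CDC19, the pyruvate kinases, differed by 2.49 and -0.15, and TDH1 and TDH3 by 1.98 and -0.23. HXK1 and GLK1, sugar kinases used more when glucose is short, rose by 1.36 and 1.36, and HXK2 differed by -0.21. ENO, TDH and HXT genes have close copies and recovered reads that were not whole, so their single values are uncertain.

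Other rises lay around the mitochondrion and acid balance. PYC1, pyruvate carboxylase, was at 550 CPM at 15 min and 96.3 CPM at 0 min (log2 difference 2.51), beside 0.46 for its paralog PYC2. Among 37 genes of oxidative phosphorylation 9 rose, beside 13.2% of all genes, and 4 with the median gene set to 0, beside 8.14%. Those 9 included INH1, an inhibitor of the mitochondrial ATPase, at 1.83 (its reads were not whole at 0 min), its relative STF1 at 2.01, and COX5B, the low-oxygen form of a cytochrome oxidase subunit, at 1.89. NCE103, carbonic anhydrase, was at 2074 CPM (2809 reads) at 15 min and 298 CPM (1025 reads) at 0 min, and ALD6, which makes acetate, was at 3511 CPM at 15 min and 1068 CPM at 0 min. These were log2 differences of 2.80 and 1.72, and at 30 min 2.43 and 1.59.

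Ribosome biogenesis genes were the lowest list. Of 142 genes 15 fell and none rose, beside 1.37% fallen among all genes, with a median of -0.58. In all 139 of the list were below 0, beside 1785 of all 5248 genes. With the median gene set to 0 the list's median was -0.83 and 42 had fallen, beside 3.83% of all genes. Together the 142 genes took 3.02% of the reads at 15 min, against 4.16% at 0 min. DBP2, an RNA helicase with a role in rRNA processing, was at 481 CPM (651 reads) at 15 min and 1025 CPM (3523 reads) at 0 min, a log2 difference of -1.09. SRP40, a nucleolar chaperone, RRP9, a protein of the U3 particle, and REI1, a late factor of the large subunit, differed by -1.61, -1.51 and -1.33. The largest fall in the list, DHR2 at -1.82, rested on 21 reads at 15 min and 188 at 0 min. RRN11, of the RNA polymerase I core factor, fell by 1.23 on the log2 scale, and 38 genes of RNA polymerases I and III had a median of -0.32.

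Ribosomal protein genes were lower by less, but across the list. None of 136 cytosolic ribosomal protein genes passed 2-fold and the median was -0.44. Of the 136, 130 were below 0, beside 1785 of all 5248 genes. Their share of reads was 25.2% at 15 min against 32.4% at 0 min. RPL18B, with a log2 difference of -0.95, RPL7B and RPS24B, both at -0.93, and RPL24B at -0.89 were the lowest, all from duplicated genes with recovered reads that were not whole, and RPS28B was listed at 0 min alone. The 71 mitochondrial ribosomal protein genes had a median of 0.36, with 2 risen, beside 13.2% of all genes, and none fallen. At 30 min the cytosolic list had a median of -0.73 and ribosome biogenesis genes one of -1.55, with 132 of 134 lower than at 15 min.

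GCGATGAG was found upstream of 74 of the 142 ribosome biogenesis genes and GAAAAATTT upstream of 85, beside 5.44% and 9.02% of all genes. Over all genes that fell the shares were 28.6% and 27.1%, and over all that rose 1.99% and 3.68%. TOD6, a repressor that binds PAC, fell by 1.45 on the log2 scale with 29 reads at 15 min and 201 at 0 min.

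**Figure D4:**
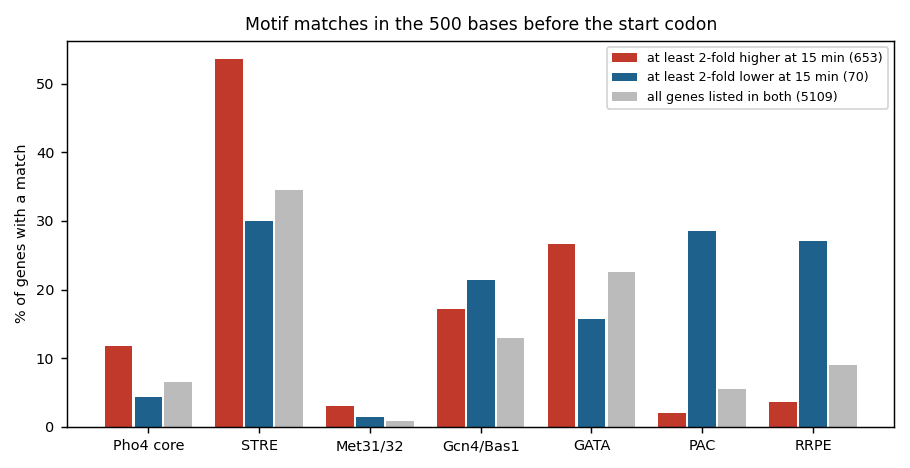
Share of genes with at least 1 match to each motif within 500 bases before the start codon (vertical axis, percent), for the 653 genes that rose, the 70 that fell and all 5109 with a usable window. AGGGG (STRE) stands at 53.6% among genes that rose, and PAC and RRPE at 28.6% and 27.1% among genes that fell.

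The steepest falls outside the ribosome lists took in transporters, a repressor and uncharacterized genes. AQR1, an exporter of amino acids and drugs, was at 16.99 CPM (23 reads) at 15 min, against 132 CPM (454 reads) at 0 min, a log2 difference of -2.96 with a counting interval of -3.63 to -2.36, and it had no value at 30 min. FUI1, the uridine permease, differed by -1.89. HXT3 and HXT1, the low-affinity glucose transporters, were at 360 CPM and 95.3 CPM at 15 min and 1231 CPM and 296 CPM at 0 min, log2 differences of -1.78 and -1.64, while HXT7, a high-affinity one, rose by 1.59. YLR413W, an uncharacterized gene, fell by 2.12, and YJR114W, which has no match in the reference and whose reads were not whole, by 2.07. MIG3, a transcriptional repressor, fell by 1.80 on 13 reads at 15 min and 115 at 0 min.

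Genes without a value in 1 of the libraries can only be bounded. The highest at 15 min alone was SEO1, a putative permease, at 34 reads and at least 8.63-fold above the lowest value given for 0 min, followed by RTA1 at 28 reads. The highest at 0 min alone was BRL1, a nuclear envelope gene, at 95 reads, which puts it at least 3.74-fold lower at 15 min; RPS28B and BIO4, at 75 reads each, were at least 2.95-fold lower. The lowest value given is 7.39 CPM at 15 min and 2.91 CPM at 0 min, about 10 reads in each library, so weak genes could drop out more easily at 15 min.

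The 30 min library lists no value below 16.6 CPM, so a gene well under that level at 0 min could appear at 30 min only while still raised. It had a value for 566 of the 694 genes that rose; 450 of them were still at least 2-fold above 0 min, 114 were above it by less and 2 had crossed below, and 330 were higher than at 15 min and 236 lower. Of the 361 risen genes at or above 16.6 CPM at 0 min, which would have been listed on return to their 0 min level, 360 had a value at 30 min and 272 were still at least 2-fold higher. Of the 72 genes that fell, 52 had a value. Of these, 34 were still at least 2-fold below 0 min, 13 were below it by less and 5 had crossed above. A fallen gene that stays low enough is not listed at 30 min, and the 20 without a value could not be followed. The 34 of 52 is therefore not the share held among all 72. Over all 4677 genes listed at both 0 and 30 min, 796 (17%) were at least 2-fold higher at 30 min and 324 (6.93%) at least 2-fold lower. Over all 694 genes that rose the median log2 difference was 1.34 at 15 min. Over the 566 with a 30 min value it was 1.51 at 30 min. For falls it was -1.14 at 15 min over all 72 genes and -1.35 at 30 min over the 52 with a value. The medians at the 2 times cover unlike sets of genes, so they do not measure a further change.

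**Figure D5:**
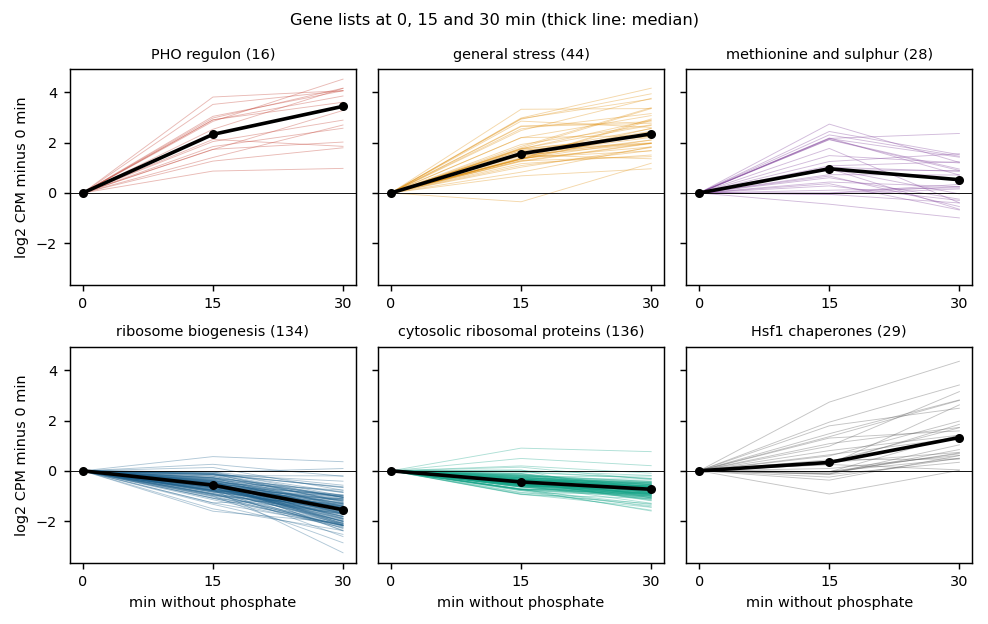
Log2 CPM minus the 0 min value (vertical axis) at 0, 15 and 30 min without phosphate (horizontal axis) for genes of 6 lists with a value at all 3 times, 1 thin line per gene and the median as a thick line. The PHO regulon, general stress and Hsf1 medians rise to 30 min, the sulphur median is highest at 15 min, and both ribosome medians are lowest at 30 min.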

How the data were processed

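Total RNA of 16 libraries, 1 per time point, was purified on columns and its cDNA read on an Illumina machine, per the labels' protocols. Reads were aligned with Bowtie (version not given in the sources used here) to build R64, per the submitters' processing notes; the counting program, strand setting and handling of multiply mapped reads are not given in the sources used here, so antisense and overlapping genes cannot be told apart. The deposited values are log2 CPM, as each library sums to 1000000 once raised back; the normalization to the first time point named in the design text is not seen in them. Weak genes have no value. Of 6701 entries, 51 have no name and 1 repeated name was left out.

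Differences were formed by subtraction, with no pseudocount, in Python 3.11.15 with numpy 2.4.6, pandas 2.3.3, scipy 1.17.1 and matplotlib 3.10.9. Reads were recovered by taking each library's lowest value as 10 reads: 97.0% of low values at 15 min and 96.1% at 0 min were then whole to within 0.01 reads, against 48.7% and 47.9% with a step of 2 such reads. This gave 1353954 reads at 15 min and 3437661 at 0 min. Counting intervals are exact conditional binomial (Clopper-Pearson, 95%) and cover counting error only. No test between times was run, since each has 1 library; a change is a difference of at least 2-fold. The fold calculation was tested on simulated data.

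Named genes are the 20 largest rises and 20 largest falls with a mean log2 value of at least 5, the phosphate genes and the strain checks. They also take in up to 4 genes of each other list and genes listed in 1 library. Genes of 4-fold change nearest to 0 at 30 min, among those with a value then, are named too. Further ones were picked after their values were seen. The members and lists were chosen with earlier results of these data known. Gene names, coordinates and promoter sequence come from RefSeq (R64), which matched 5115 of the 5248 genes. Shown stretches are from the genes of each list with the largest change that have at least 2 matches within 120 bases, leaving out SPI1.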

Additional observations from a re-analysis of the deposited data

How the results depend on the processing

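Counts depended on the scale and the threshold. With the median gene set to 0, 427 genes rose and 201 fell, in place of 694 and 72. At 4-fold the counts were 95 and 3, and at 1.5-fold 1527 and 381. With a mean log2 value of at least 5 they were 323 and 44, and with the 30 min library in place of 15 min 796 and 324. With missing values set to the floor they were 808 and 81, and with a common floor 546 and 72. The next 3 alternatives were chosen after seeing the data. Among genes with a 0 min value of at least 2 times the lowest at 15 min, 383 rose and 72 fell, and among risen genes at or above the 30 min floor at 0 min 272 of 360 held. With the median gene set to 0 at both times, 269 rises of 345 and 109 falls of 158 held at 30 min, in place of 450 of 566 and 34 of 52. The median log2 change of 12 of 49 lists, all under 0.25 in size, changed sign once centred on the median gene, among them glycolysis, amino acid control and amino acid permeases. Of the named genes past 2-fold, MMP1 alone had the opposite sign at 30 min, at -0.39. That value rested on 19 reads at 30 min and 142 at 0 min. No paired analysis was possible because each time point has 1 library. With 1 library a side, the spread between cultures is unknown.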

Other observations

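Further gene groups were compared between 15 min and 0 min. All 36 proteasome genes were above 0, beside 3463 of all 5248 genes, at log2 differences of 0.03 to 0.85, and none reached 2-fold. Their median was 0.41, or 0.16 with the median gene set to 0. PRE2, a catalytic subunit, was highest, at 1036 CPM at 15 min and 576 CPM at 0 min. Of 26 oxidative stress and redox genes 7 rose, beside 13.2% of all genes, and 3 with the median gene set to 0, beside 8.14%. They included GRX2, a glutaredoxin, at 1.49, and GSH1, the first enzyme of glutathione synthesis, which had 1.31 at 15 min and 0.33 at 30 min. GPD1, which makes glycerol under osmotic stress, rose by 2.02, while 14 osmotic response genes had a median of 0.49. Phospholipid genes gave 4 rises among 27, a share near the 13.2% of all genes, with OPI3, a phospholipid methyltransferase, at 1.18.

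Cell cycle genes mostly stayed within 2-fold. Of 20 G2/M genes 1 rose, beside 13.2% of all genes, with a median of 0.56, beside 0.25 over all genes. Over the 18 also listed at 30 min the median was 0.46 at 15 min and 0.10 at 30 min. The 27 G1/S genes had a median of -0.23 and the 21 M/G1 genes one of -0.15. With the median gene set to 0 the medians were 0.31 for G2/M, -0.48 for G1/S and -0.40 for M/G1. FKH2, a forkhead factor of the G2/M genes, was at 40.7, 73.1 and 24.9 CPM at 0, 15 and 30 min, the last on 15 reads. Among 11 histone genes none passed 2-fold, and 27 ergosterol genes had a median of 0.06, which is -0.19 with the median gene set to 0.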
